A study of Mus musculus with 2 samples.

Results

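The cells described here are the Gpha2-positive limbal-type cells among cycling epithelial cells of the mouse cornea. They were chosen from the raw counts of UMIs (molecular tags, each marking 1 captured RNA molecule), among barcodes in which 500 or more genes were detected and mitochondrial RNA made up less than 20% of UMIs. A member had at least 5 UMIs of Krt12 and Krt15 together, with Krt12 under a fraction of 0.4 of that sum, at most 2 UMIs of Krt4, Krt13 and Krt19 together, and at least 2 UMIs of Gpha2. Of 6752 barcodes, 6188 cells were kept, and 744 met the rule. All cells came from mice of genotype CycB1-GFP, a reporter of cyclin B1 in which GFP marks cycling cells. Corneal epithelium was peeled after Dispase, dissociated with trypsin and sorted to keep live cells with GFP. Every group compared here shares that genotype and that sort. The 2 libraries were aggregated in 1 matrix. No label links them to the replicate numbers, so they are called library 1 and library 2. No source used here gives the age, strain or number of mice behind a library. P-values thus measure only how far class differences varied between these libraries, a spread that may be technical.

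The limbus is the rim between the cornea and the conjunctiva, and its basal layer holds the stem cells that renew the corneal epithelium. Cells there carry Krt15 and little of Krt12, the keratin of differentiated cornea, while Krt4, Krt13 and Krt19 belong to conjunctival and other mucosal epithelia. Gpha2 encodes a glycoprotein hormone alpha subunit that pairs with the beta subunit encoded by Gphb5 to form thyrostimulin, a ligand of the thyrotropin receptor, and it is known as a marker of limbal epithelium. Position in the tissue was not measured here, so "limbal-type" rests on RNA alone.

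Because Gpha2 and Gphb5 encode the subunits of 1 hormone and Wfdc18 is a marker outside the rule, the promoters of these 3 genes are shown. The windows run from 250 bases before to 50 bases after the annotated start, on the strand of the gene (RefSeq, GRCm38.p6), and 5 of the 7 marker genes had an entry. Capitals mark the SOX core ACAAT or its reverse complement ATTGT, searched because Sox9 is the factor the series is about. Gpha2 lies on chromosome 19 (chr19:6226151-6226450, plus strand), Gphb5 on chromosome 12 (chr12:75416732-75417031, minus strand) and Wfdc18 on chromosome 11 (chr11:83708754-83709053, plus strand).
Gpha2: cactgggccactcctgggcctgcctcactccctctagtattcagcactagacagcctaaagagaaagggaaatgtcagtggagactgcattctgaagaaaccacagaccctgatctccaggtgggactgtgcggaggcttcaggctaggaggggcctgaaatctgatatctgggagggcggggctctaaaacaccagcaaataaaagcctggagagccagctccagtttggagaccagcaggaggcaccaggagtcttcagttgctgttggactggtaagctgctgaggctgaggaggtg
Gphb5: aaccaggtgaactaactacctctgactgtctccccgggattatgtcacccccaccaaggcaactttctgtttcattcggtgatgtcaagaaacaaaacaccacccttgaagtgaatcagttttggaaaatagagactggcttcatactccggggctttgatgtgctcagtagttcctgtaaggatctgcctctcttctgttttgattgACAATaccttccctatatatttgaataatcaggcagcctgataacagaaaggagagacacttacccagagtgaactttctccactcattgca
Wfdc18: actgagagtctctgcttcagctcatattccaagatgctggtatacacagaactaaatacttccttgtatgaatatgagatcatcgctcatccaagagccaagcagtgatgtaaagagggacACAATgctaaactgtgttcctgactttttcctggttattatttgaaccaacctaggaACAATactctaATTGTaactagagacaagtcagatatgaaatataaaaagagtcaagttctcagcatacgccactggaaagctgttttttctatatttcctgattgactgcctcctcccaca
The SOX core occurred 0 times in the Gpha2 window, 1 time in the Gphb5 window and 3 times in the Wfdc18 window. It was present in 31.0% of all 32851 promoter windows of this length. The AP-1 motif TGANTCA, present in 7.81% of windows, matched 1 time for Gphb5 and 0 times for the other two. TATAAA, present in 13.6% of windows on either strand, matched 1 time for Wfdc18. These matches describe letters in a window and do not show a binding site.

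Gpha2-positive limbal-type cells made up 9.22% of kept cells in library 1 (294 of 3187, exact 95% binomial interval 8.24 to 10.3%) and 15.0% in library 2 (450 of 3001, 13.7 to 16.3%). The intervals do not overlap, but they cover counting error only. Each library is 1 sample, so the difference has no replicate check. Members had a median of 4640.5 and 4742.5 UMIs per cell, below the medians of all kept cells (5571 and 5886). Gpha2 itself ranged from 2 to 26 UMIs per member in library 1 and from 2 to 41 in library 2, with medians of 5 and 6. At the edge of the rule, 51 and 47 members had exactly 2 Gpha2 UMIs, and 62 and 54 cells that met the keratin criteria had 1 and stayed outside. No barcode sequence of the class occurred in both libraries, against 4 among all kept cells. Doublets were not called, and 1 member was among the 3% of cells with most UMIs.

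Cells were placed in 6 classes by the same genes. The class closest to the members (246 cells) met every keratin criterion and had at most 1 Gpha2 UMI. A second Krt15-dominant class (632 cells) had 3 or more UMIs of the mucosal keratins. Krt12-dominant cells (4134) formed the bulk of the sort, and cells with mixed (316) or low (116) keratin counts made up the rest. Of the cells outside the class, 110 and 244 had the Krt15 profile and at least 2 Gpha2 UMIs but were excluded for mucosal keratins.

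The label was compared with 5 markers that the rule did not use, Gphb5, Wfdc18, Igfbp2, Apoe and Sftpd. They were chosen on these data, so they are described without a test. Levels are CPM, the UMIs of a gene per 1000000 UMIs of all cells of a class in a library. Wfdc18, a secreted whey-acidic-protein family member, was at 1921 CPM in library 1 and 4062 in library 2, against 13.5 and 38.4 in Krt12-dominant cells. Sftpd, the collectin surfactant protein D, was at 128 and 273 CPM against 0.6 and 3.2. Igfbp2, a binding protein of insulin-like growth factors, was at 451 and 625 CPM against 36.6 and 24.5. Apoe, a lipid carrier, was at 1967 and 2797 CPM against 166 and 307. In both libraries all 4 were high in the class and low in Krt12-dominant cells, with no overlap.

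Gphb5, the partner subunit of Gpha2, was at 38.3 and 186 CPM in the class and at 0.9 and 2.2 CPM in Krt12-dominant cells. It was not lower in cells with little Gpha2, at 55.2 and 232 CPM (37 and 85 UMIs). In Krt15-dominant cells with mucosal keratins it stood at 23.4 and 54.6 CPM. The levels of Wfdc18, Igfbp2, Apoe and Sftpd in the class lay above those in cells with little Gpha2 in both libraries. After thinning every cell to 2000 UMIs and leaving out shallower cells (289 and 432 members remained), a Gphb5 UMI was found in 7.96% and 22% of members, and in 11.2% and 31.6% without thinning. In cells with little Gpha2 the thinned shares were 7.75% and 19.4%, close to those of members. In Krt12-dominant cells the thinned shares were 0.147% and 0.369%, at median depths of 5786 and 6375 UMIs before thinning. Most members carried no detected Gphb5 at this depth. Wfdc18 was found in 58.5% and 84.3% of thinned members against 0.881% and 2.40% of Krt12-dominant cells, and in 68.7% and 88.0% of members without thinning. Tshr, the receptor of thyrostimulin, had 0 UMIs in 744 members and 2 UMIs in all other kept cells. The approximate 95% upper limit on the share of such cells with a UMI, 3 divided by 744, is 0.403%.

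**Figure D1:**
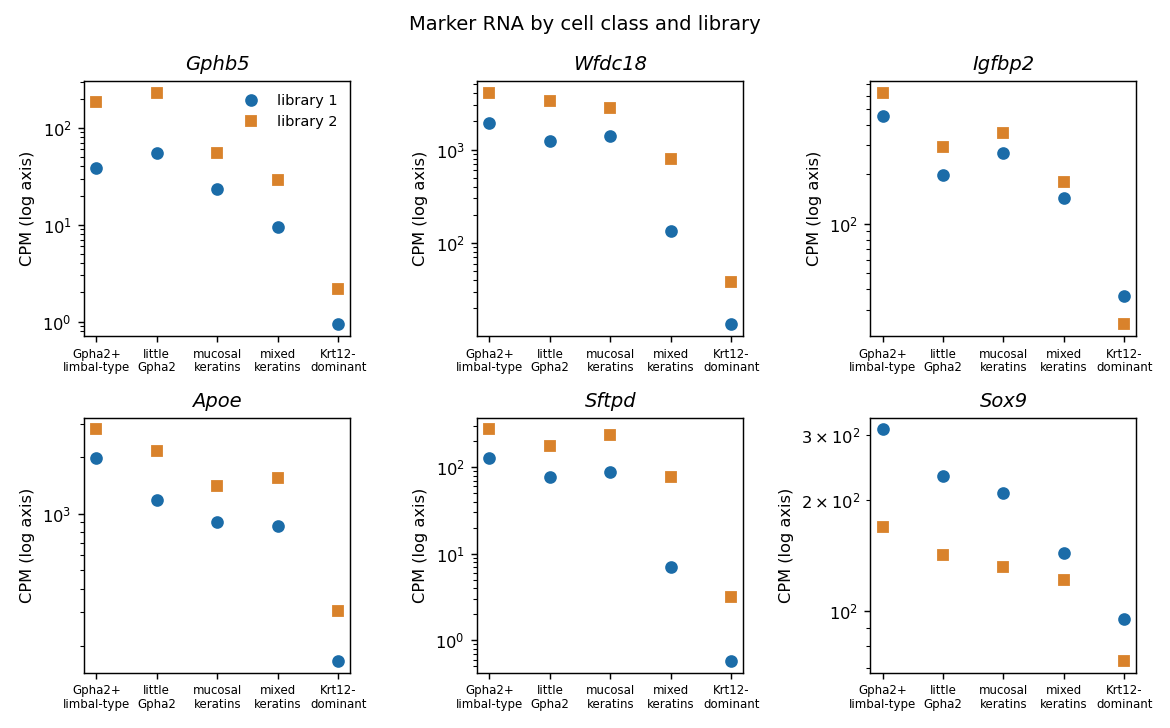
RNA level (CPM, log axis) of 5 markers and Sox9 in 5 cell classes, 1 point per library; the low-keratin class is left out. The markers are high in the 3 Krt15-dominant classes and lowest in Krt12-dominant cells in both libraries. Gphb5 CPM is higher in cells with little Gpha2 than in the class, but the shares of thinned cells with Gphb5 are not.

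The first comparison asked which other genes distinguished these cells from all other kept cells of the same library. Col14a1, Gnai1, Tfcp2l1, Tnc and Mdk were among the genes with the largest increases, and Aqp5, Slurp1 and Lypd2 among those with the largest falls. Of 11789 genes tested with edgeR's quasi-likelihood test (library as a block, Benjamini-Hochberg adjusted p under 0.05), 1473 were higher (12.5%) and 1556 lower (13.2%), or 25.7% in all. The 6 genes of the rule are left out of these counts. The sign was the same in both libraries for 3023 of the 3029 genes. The fit rests on 4 sums and 1 residual degree of freedom, and without the library block 900 genes were called. Members were picked on RNA of the same cells, so these calls show which genes accompany the gate, not that the cells form a type.

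Col14a1, a fibril-associated collagen, was at 37.0 CPM in the class in library 1 and 59.8 in library 2, against 1.9 and 5.2 in all other cells (log2 fold change 3.76, SE 0.22, edgeR adjusted p 2.55e-28). Tnc, the matrix glycoprotein tenascin C, was at 46.4 and 60.7 CPM against 5.7 and 6.6 (log2 fold change 3.08, SE 0.18, edgeR adjusted p 3.3e-28). In both genes the lowest class value lay above the highest value of the other cells. Mdk, the growth factor midkine, was at 24.9 and 78.5 CPM against 3.8 and 8.4 (log2 fold change 3.03, SE 0.19). Ptprz1, a receptor tyrosine phosphatase that binds midkine, was at 47.1 and 89.7 CPM against 8.7 and 8.9 (2.91, SE 0.18). Ligand and receptor RNA were thus both higher in the class in both libraries, although Mdk lost the call without the library block (edgeR adjusted p 0.109). Tfcp2l1, a transcription factor of the CP2 family, was at 28.2 and 104 CPM against 2.5 and 12.6 (3.12, SE 0.17), and also lost the call without the block (edgeR adjusted p 0.235). Also named by size were Gnai1, an inhibitory G protein subunit (3.44), and the PDZ and LIM protein gene Pdlim4 (2.77, edgeR adjusted p 0.184 without the block). The small GTPase gene Arl4c (2.75), Ccdc3 (2.70) and Nav2 (2.70) completed the set. None of these higher genes was called against cells with little Gpha2, although each was above them in both libraries. Ccdc3 was at 110 and 142 CPM in the class and 71.7 and 139 in those cells. There Tnc stood at 34.3 and 40.9 CPM, and Col14a1 at 9.0 and 27.2.

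Of the 10 largest falls, most were in genes whose level was highest in Krt12-dominant cells, but Krt6b and Asprv1 were highest in the mucosal class in both libraries, and Psca in library 1. Aqp5, a water channel, was at 28.9 and 36.9 CPM in the class against 1958 and 2510 in all other cells (log2 fold change -6.12, SE 0.09, edgeR adjusted p 1.93e-80). Slurp1, a secreted Ly6 family protein of the ocular surface, was at 12.1 and 17.3 CPM against 785 and 887 (-5.84, SE 0.12). Lypd2, of the same family, was at 34.3 and 56.1 CPM against 1649 and 2983 (-5.71, SE 0.09). The library values differed little beside gaps of this size. Psca, a further Ly6 family gene, had 1 UMI in the class and 1740 elsewhere, a ratio of 192 with an exact counting interval of 34.3 to 7573. Its call was lost without the block (edgeR adjusted p 0.240). Psca, Slurp1 and Lypd2 are neighbours on chromosome 15 (74714839 to 74734329, GENCODE M21, GRCm38). Krt6b (-4.63), the chloride channel gene Clic3 (-4.57), Adtrp (-4.35), Cyp4a12b (-4.33) and Guca1a (-4.16) were also lower. Asprv1, a protease gene of cornifying epithelia, had a log2 fold change of -4.11, but -2.11 in library 1 and -4.65 in library 2. It missed the threshold without the block, with matched depth and with thinned cells (edgeR adjusted p 0.276, 0.272 and 0.326), at log2 fold changes of -3.98, -5.11 and -4.48.

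**Figure D2:**
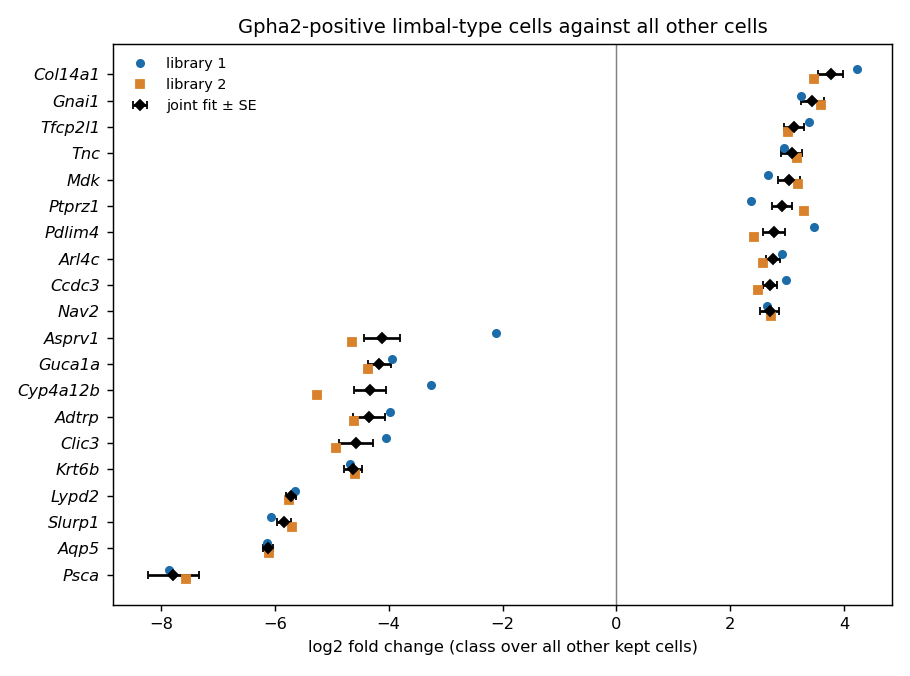
log2 fold change of the 20 genes named by size, class over all other kept cells; diamonds with bars are the joint fit ± SE, circles and squares the separate libraries. All 20 lie on the same side of 0 in both libraries, and Asprv1 and Cyp4a12b differ most between them.

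Signalling genes were counted in lists, each read against the share of all genes called (12.5% higher, 13.2% lower). The median log2 fold change of all tested genes was -0.01. Of 25 tested Wnt pathway genes, 13 were higher and 4 lower (median 0.52), and 5 were higher without the block. The nuclear factor gene Lef1 (2.82, SE 0.97) rested on few UMIs, at 2.69 and 1.40 CPM against 0.347 and 0.192. The receptor gene Fzd3 (2.29), the feedback target Axin2 (1.95) and the nuclear factor gene Tcf7 (1.79) followed. Axin2 was at 5.4 and 13.6 CPM in the class against 2.5 and 2.4 elsewhere. Among ligands the direction was mixed. Wnt10a (136 and 179 CPM against 51.1 and 68.6) and Wnt6 (35.6 and 36.4 against 11.3 and 14.5) were higher, while Wnt3a (log2 fold change -2.11) and Wnt4 (-0.41) were lower. The secreted modulator Dkk3 (-1.17) and the receptor Fzd6 (-0.87) were lower as well. Only Wnt10a and Wnt6 of 23 tested members were called against cells with little Gpha2, where 0.264% of all genes were.

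Of 19 tested BMP and Id genes, 7 were higher and 2 lower (median 0.35), with 4 higher without the block. Bmp2, a ligand, was at 18.8 and 9.8 CPM against 2.4 and 1.5 (log2 fold change 2.81, SE 0.35). Fst, an activin and BMP antagonist, followed at 1.72, and the inhibitor-of-differentiation genes Id4 (1.27) and Id3 (1.26) were higher. Id2 (-0.29) and the ligand Bmp3 (-1.32) were lower, so the list did not move one way. When set against cells with little Gpha2, 0 of 18 tested members were called, where 0.264% of all genes were. Of 10 tested Notch genes, the ligand Jag2 was higher (0.39) and the receptor Notch3 (-2.08), the target Nrarp (-0.86) and the ligand Jag1 (-0.59) were lower. Of 13 YAP and TEAD genes, 3 were higher and 2 lower, and without the block 1 and 0. Ctgf was at 58.5 and 38.3 CPM against 4.5 and 4.6 (3.35, SE 0.21), while Cyr61, its CCN family relative, was lower (-1.17).

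IGF axis genes were called higher in 6 of 10 cases and lower in 1 (median 1.12), with 3 higher without the block. The binding protein genes Igfbp4 (log2 fold change 2.76, SE 0.24), Igfbp7 (2.69, SE 0.12) and Igfbp3 (2.00, SE 0.19) were higher in the class, beside Igfbp2, which is a listed marker. Igfbp4 was at 18.8 and 42.1 CPM against 2.2 and 6.7, and Igfbp3 at 59.8 and 21.5 against 13.2 and 6.1. Class values lay above those of the other cells for each. Igfbp5 was lower (-0.62, SE 0.12). Only Igfbp7 of 9 tested genes was called against cells with little Gpha2 (median 0.06), where 0.264% of all genes were. With mucosal-keratin cells as the other group, 3 of 9 were higher and 0 lower (median 0.02), where 4.43% and 6.27% of all genes were. The ligand genes Igf1 and Igf2 had 0 UMIs in the class, with the same approximate upper limit of 0.403% of cells.

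Of 16 tested genes linked to the outer limbus, 8 were higher and 4 lower (median 0.64), and without the block 3 and 1. The tetraspanin gene Cd63 was at 143 and 175 CPM against 31.6 and 31.2 (log2 fold change 2.30, SE 0.11). Vim (1.73), Cebpd (1.26) and Id3 (1.26) were also higher. Sox9, the transcription factor named in the title of the series, was at 311 and 169 CPM against 114 and 87.9 (1.16, SE 0.10, edgeR adjusted p 3.7e-16). Its class values lay above those of the other Krt15-dominant and the Krt12-dominant cells in each library, yet the class value of library 2 lay below the 233 CPM of library 1 cells with little Gpha2. Against cells with little Gpha2, 0 of 16 outer limbal genes were called, Sox9 included, where 0.264% of all genes were. In thinned cells a Sox9 UMI was found in 40.5% and 27.8% of members, against 34.9% and 28.4% of cells with little Gpha2. Abcg2, a transporter often used as a stem cell marker, was lower (-1.27, SE 0.34), at 8.7 and 2.3 CPM against 12.8 and 11. Lrig1 (-0.68), Igfbp5 (-0.62) and Krt5 (-0.51) were lower too. Only Socs3 of 4 inner limbal genes was called, and it was higher (0.61).

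Among 25 tested genes of corneal differentiation, 16 were lower and 2 higher (median -1.26). Besides Aqp5, Slurp1 and Lypd2, the desmosomal cadherin gene Dsg1a was lower, with 1 UMI in the class and 1086 elsewhere (ratio 120, exact counting interval 21.4 to 4728). Krtdap (1.91) and Klf5 (0.65) were the 2 higher genes. Aldh3a1, a corneal crystallin enzyme, had a log2 fold change of -3.58 that did not pass the test (edgeR adjusted p 0.111), at 682 and 590 CPM in the class. Of 11 conjunctival genes, 6 were lower and 3 higher. Muc4, a membrane mucin (-3.91), and the keratin genes Krt16 (-3.28) and Krt6a (-1.88) were lower, and the simple-epithelial keratin genes Krt7 (1.71) and Krt18 (0.76) and the basal keratin gene Krt17 (1.15) were higher. Of 19 basal adhesion genes, 5 were higher, led by Cdh3 (P-cadherin, 1.49) and Lamb3 (a laminin chain, 1.16), and 7 lower. Col17a1, a hemidesmosomal collagen, was at 483 and 543 CPM against 836 and 857 (-0.76, SE 0.07). Among 23 lineage transcription factors, 9 were higher and 7 lower. Without the block these became 5 and 1, the lower conjunctival genes 3 and the higher basal adhesion genes 2. Barx2, a homeobox gene, was at 218 and 278 CPM against 55.1 and 71.6 (1.93, SE 0.09), while the differentiation factor Grhl3 (-1.82) and Zfp750 (-1.35) were lower.

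Of 14 secreted defence genes, 8 were higher and 1 lower (median 0.98), with 2 higher without the block and 4 with DESeq2 or with matched depth. Lcn2, the siderophore-binding lipocalin 2, was at 319 and 158 CPM against 62.9 and 37.7 (log2 fold change 2.18, SE 0.10). The complement regulator gene Serping1 (1.69) and the chemokine gene Cxcl17 (1.03) were higher as well. Against cells with little Gpha2, 0 of 12 tested members were called, where 0.264% of all genes were. Against cells with mucosal keratins, 2 of 12 were higher and 3 lower (4.43% and 6.27% of all genes). The 3 lower genes were Cxcl17, Defb1 and Ltf. Cxcl14 was lower, with 1 UMI in the class and 219 elsewhere (ratio 24.1, exact counting interval 4.28 to 957). The Sftpd and Wfdc18 values belong to this list and are described above.

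Lipid handling genes split by role. Of 22 tested, 12 were lower and 4 higher (median -1.27), against a median of -0.01 over all genes. Sterol and fatty acid synthesis genes made up most of the lower members. The desaturase genes Scd1 (log2 fold change -3.17) and Scd2 (-2.55), the lanosterol synthase gene Lss (-2.87) and the squalene epoxidase gene Sqle (-2.50) had the largest changes. Scd2 was at 84.7 and 58.9 CPM in the class against 450 and 362 elsewhere. The higher members were Apoe and the transfer protein gene Pltp (2.26, SE 0.17), Alox12e, an epidermal lipoxygenase gene (1.42, SE 0.10), and Apoc1 (0.53, SE 0.09), the neighbour of Apoe on chromosome 7. Without the block 1 of the 4 higher members was called. Only Scd2 of 21 tested members was called against cells with little Gpha2, where 0.264% of all genes were.

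**Figure D3:**
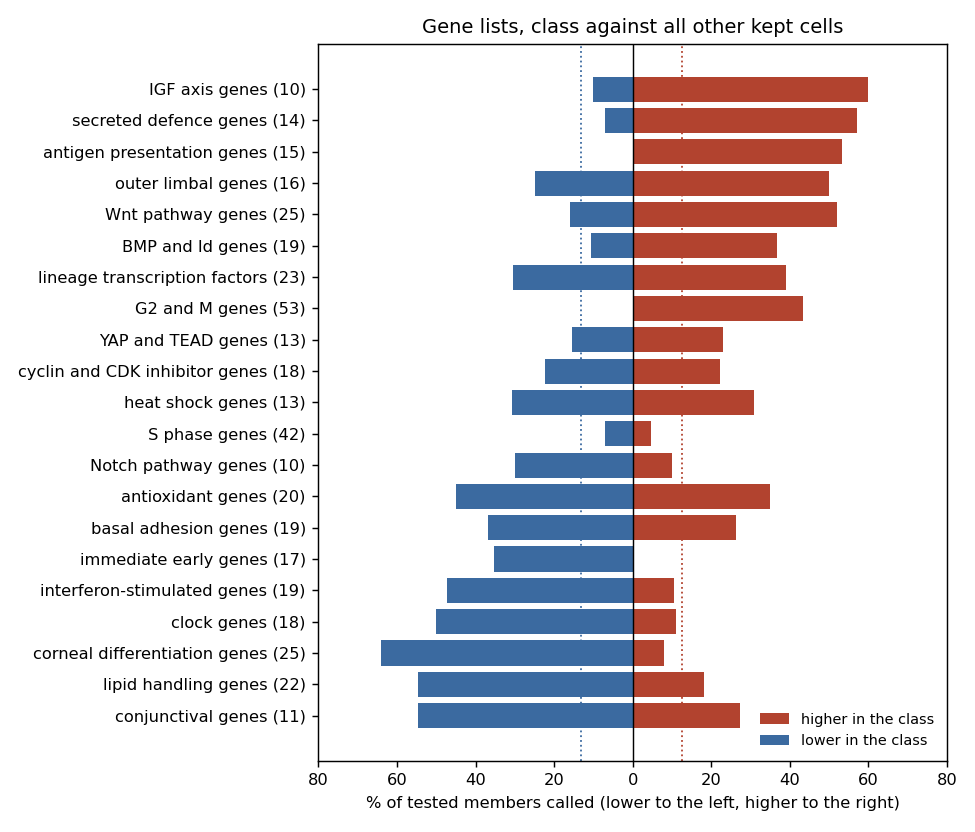
Share of the tested members of each gene list (number tested in brackets) called higher (right) or lower (left) in the class against all other kept cells, lists ordered by median log2 fold change; dotted lines mark the share over all genes. IGF axis genes lie at the top, and corneal differentiation, lipid handling and conjunctival genes at the bottom.

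All cells were sorted as GFP-positive, so cycle genes were read within cycling cells. In thinned cells, Mki67, Top2a or Ccnb1 RNA was found in 92.4% of members in library 1 (exact binomial interval 88.7 to 95.2%) and 89.4% in library 2 (86.1 to 92.1%). The shares were 89.0% and 89.6% in Krt12-dominant cells and 86.8% and 97.0% in cells with little Gpha2, so their order differed between libraries. Of 42 S phase genes, 2 were higher and 3 lower, and without the block 1 and 0. Of 53 genes of G2 and M phase, 23 were higher and 0 lower, with a median log2 fold change of 0.18. Psrc1 (0.88), Ect2 (0.80), Cdc20 (0.71) and G2e3 (0.53) led this list. The count was 2 without the block, 4 with DESeq2 and 11 in thinned cells. Among cyclins and inhibitors of cyclin-dependent kinases, Cdkn1c (0.93), Ccnb2 (0.31), Cdkn1b (0.30) and Cdk1 (0.23) were higher. Cdkn2a (-2.20), Cdkn2b (-1.73), Cdkn1a (-1.53) and the G1 cyclin gene Ccnd1 (-0.44) were lower. Without the block 1 of these was called in each direction. A Ccnd1 UMI was found in 45.7% and 40.0% of thinned members, against 58.8% and 65.8% of Krt12-dominant cells. Without thinning the shares were 67.3% and 60.7% against 82.0% and 88.0%.

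Of 15 antigen presentation genes of class I and class II, 8 were higher and 0 lower (median 0.67). The 8 were class I genes or genes of peptide supply, led by H2-T23 (1.09), B2m (1.08), H2-Q4 (0.84) and H2-D1 (0.82). Levels differed as much between libraries, since B2m in the class was at 269 and 852 CPM. Without the block 0 of the 15 passed, and DESeq2 called 5. Of 19 interferon-stimulated genes, 9 were lower and 2 higher. Their summed level lay the other way, at 2454 and 3153 CPM in the class against 2188 and 2443, of which Ifitm3, which did not pass the test, supplied 1241 and 1517 against 865 and 672. Oasl1 (-2.25), Rsad2 (-2.15), Ifit1 (-1.46) and Ifit3 (-1.25) had the largest falls, while Cxcl10 was higher (1.75). Of 17 immediate early genes, 6 were lower, led by Zfp36 (-1.45), Fos (-1.36), Ier2 (-0.99) and Junb (-0.83). Fos was at 491 and 197 CPM against 1309 and 458, so the class value of library 1 lay above the other cells of library 2. Of 18 clock genes, 9 were lower and 2 higher. For the interferon, immediate early and clock lists, 0 lower members passed without the block.

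Among markers of other cell types, the 12 immune markers summed to 6.0 and 4.7 CPM, with 9 of the 12 at 0 in each library, against 13.5 and 24.6 CPM in all other cells. Low-keratin cells held 95 of the 234 and 238 of the 385 immune UMIs outside the class, and Krt12-dominant cells stood at 8.2 and 8.8 CPM. Ptprc, Kera, Sox10, Muc5ac and Kdr had 0 UMIs in the class, each with the same approximate upper limit of 0.403% of cells. The stromal list summed to 68.6 and 46.7 CPM, with 7 and 8 of 9 genes at 0. Aldh1a3 supplied 66.5 and 46.7 CPM of it and was lower than in all other cells (log2 fold change -0.77), and Dcn supplied the other 2.0 CPM in library 1. The sum for the 8 melanocyte markers was 32.3 and 51.4 CPM, close to 34.6 and 49.8 elsewhere, with 5 at 0 in each library. The 6 endothelial and mural markers summed to 18.8 and 13.1 CPM through Acta2, which was higher in the class (log2 fold change 1.55), against 5.0 and 5.4. The goblet list held only Agr2, at 41.7 and 54.2 CPM against 13.1 and 25, and it was higher in the class (1.30). The list stood higher still in cells with little Gpha2 (50.8 and 73.5 CPM) and with mucosal keratins (76.5 and 101). Against the latter Agr2 was called lower in the class. Krt12-dominant cells stood at 3.7 and 6.4 CPM. The part of other cell types in the results was not tested. Schwann markers summed to 7.4 and 1.9 CPM, and 0 of the 2 tested were called.

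The narrowest comparison set the members against cells that met every keratin criterion but had at most 1 Gpha2 UMI. It shares the class sums with the other comparisons and was fitted on 12 sums with 5 residual degrees of freedom. Members had more RNA of the ligand genes Wnt10a, Wnt6 and Jag2, and less of Serpinb3a, Rbp2 and Calml3. Of 25 corneal differentiation genes and 10 conjunctival genes, 0 were called in either direction. With 0.264% of all genes called, this count says little about either list. Their median log2 fold changes were -0.44 and -0.48, against 0.01 over all genes tested. Of 9859 genes, 8 were higher (0.0811%) and 18 lower (0.183%), or 0.264% in all, and all 26 had the same sign in both libraries. At an unadjusted p under 0.05 there were 674. Cells with little Gpha2 were fewer (139 and 107) and in library 2 shallower, with a median of 3015 UMIs against 4742.5, and the part of depth in these calls was addressed with thinned cells only. There, 17 genes were called, of which 10 were among the 26. Without the library block 3 genes were called, and 0 of them were higher in members.

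Wnt10a was at 136 and 179 CPM in members and 50.8 and 92.6 in cells with little Gpha2 (log2 fold change 1.21, SE 0.19, edgeR adjusted p 0.000302). Wnt6, a neighbour of Wnt10a on chromosome 1 (74771892 to 74785322 and 74791516 to 74804179), was at 35.6 and 36.4 CPM against 10.5 and 8.2 (1.87, SE 0.40, edgeR adjusted p 0.0232). Its level was under the minimum of the naming rule, with 7 and 3 UMIs in cells with little Gpha2, and it was singled out after its values were seen. For both genes members were above the other cells in each library. In thinned cells a Wnt10a UMI was found in 21.8% and 30.6% of members and in 11.6% and 17.9% of cells with little Gpha2, with exact intervals that overlapped in each library (17.2 to 27.0% against 6.66 to 18.5%, and 26.2 to 35.1% against 9.61 to 29.2%). Without thinning the shares were 40.5% and 49.1% against 17.3% and 21.5%. Jag2, a Notch ligand, was at 88.7 and 119 CPM against 40.3 and 54.5 (1.13, SE 0.21, edgeR adjusted p 0.00601), whereas Notch3, a receptor of that family, was at 11.4 and 9.3 CPM against 34.3 and 38.1 (-1.86, SE 0.37, edgeR adjusted p 0.0106). Ligand and receptor thus differed in opposite directions in both libraries. Jag2 in Krt12-dominant cells was at 68.9 and 104 CPM, between members and cells with little Gpha2 in each library. Igfbp7, a secreted binding protein, was at 101 and 198 CPM against 50.8 and 92.6 (1.09, SE 0.20, edgeR adjusted p 0.00601). The remaining higher genes were 4930523C07Rik (0.84), the Golgi protein gene Golim4 (0.63), the carboxypeptidase gene Cpe (0.61) and Lgals7, a keratinocyte galectin (0.53).

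Rbp2, a cellular retinol-binding protein gene, was at 28.9 and 22.9 CPM in members and 128 and 106 in cells with little Gpha2 (log2 fold change -2.18, SE 0.19, edgeR adjusted p 5.97e-09). Serpinb3a, a serine protease inhibitor gene, was at 9.4 and 11.7 CPM against 131 and 51.7 (-3.10, SE 0.29), with -3.79 in library 1 and -2.08 in library 2. Members lay below the other cells in both libraries. Calml3, a calmodulin-like gene of stratified epithelia, was at 460 and 575 CPM against 824 and 1040 (-0.83, SE 0.11, edgeR adjusted p 1.68e-05). These genes stood higher still in cells with mucosal keratins. There Rbp2 was at 314 and 302 CPM, Serpinb3a at 224 and 155 and Calml3 at 1610 and 1970. Other lower genes, such as Scd2 and Prdx5, were highest in Krt12-dominant cells in both libraries. Genes of cell contact and surface followed, with Nectin4 (-1.48), Lypd3 (-1.37) and Ceacam1 (-1.37). So did the keratin genes Krt80 (-2.35) and Krt6b (-1.68), the protease gene Tmprss4 (-2.05) and the differentiation factor gene Zfp750 (-1.34). The desaturase gene Scd2 (-0.80) was lower, and so were 4833423E24Rik (-1.32), Baiap2 (-0.89), Chchd10 (-0.88), Prdx5 (-0.76) and Ifitm1 (-0.62). Of the 10 genes named by rule here, Wnt10a, Igfbp7, 4930523C07Rik, Nectin4 and Lypd3 missed the threshold in thinned cells (edgeR adjusted p between 0.184 and 0.246), with log2 fold changes of 0.96, 0.98, 0.90, -1.46 and -1.43. Without the block Rbp2 and Serpinb3a remained called among these 10.

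**Figure D4:**
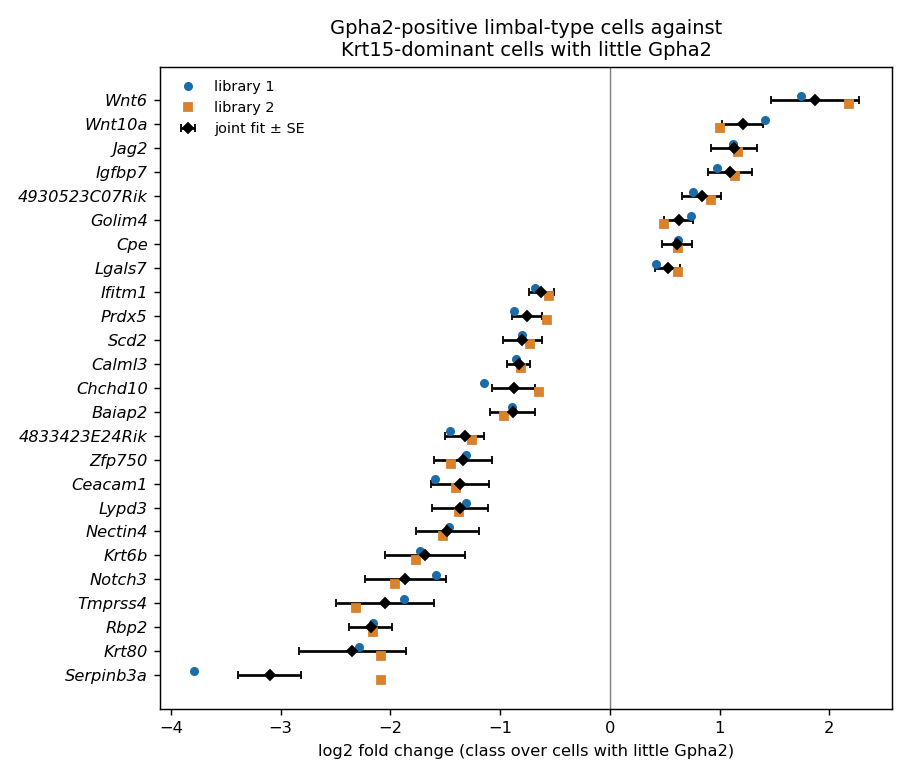
log2 fold change of 25 of the 26 called genes, class over Krt15-dominant cells with little Gpha2; diamonds with bars are the joint fit ± SE, circles and squares the separate libraries. Each of the 25 lies on the same side of 0 in both libraries, from Wnt6 at 1.87 to Serpinb3a at -3.10. Wnt6 rests on 7 and 3 UMIs in cells with little Gpha2.

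Members also varied among themselves. They were ordered in each library by the share of Gpha2 in their UMIs and split in terciles of 98 and 150 cells. The order uses the gate gene and the same cells, so the values are described with no test. From the lowest to the highest tercile, Wnt10a went from 118 to 134 to 166 CPM in library 1 and from 133 to 184 to 231 in library 2. Jag2 went from 65.0 to 89.1 to 122 CPM and from 88.7 to 131 to 142. Both ligands increased stepwise in CPM in each library, as did Igfbp7, Golim4, Apoe, Wfdc18, Igfbp2 and Sfrp1. The counts behind these steps were small and some did not increase. Wnt10a had 69, 66 and 68 UMIs in library 1 and 105, 132 and 147 in library 2. Jag2 had 38, 44 and 50 UMIs, and 70, 94 and 90. Igfbp7 had 49, 53 and 48 UMIs, and 129, 128 and 167. Total UMIs of the terciles went from 584498 to 409315 and from 789009 to 635169. No interval was computed for the steps. Calml3 went from 630 to 407 to 281 CPM and from 781 to 548 to 350, and Nectin4 from 27.4 to 12.1 to 7.3 and from 30.4 to 21 to 6.3. Rbp2, Lypd3, Serpinb3a, Prdx5 and Krt5 also decreased stepwise in each library. Gphb5 had no common order, at 24, 26.3 and 73.3 CPM in library 1 and 161, 249 and 146 in library 2. Sox9 likewise went from 236 to 298 to 435 CPM in library 1 but from 163 to 190 to 153 in library 2. Several genes called against cells with little Gpha2 also lacked 1 stepwise order in both libraries. They were Wnt6 (25.7, 44.5 and 39.1 CPM in library 1), Lgals7, Notch3, Krt80, Krt6b, Tmprss4, Scd2, Ceacam1, Baiap2, Ifitm1 and Zfp750. Median UMIs per cell were lower along the same order, from 5593 to 4152.5 and from 5182.5 to 4320, and the part of depth in these gradients was not tested.

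**Figure D5:**
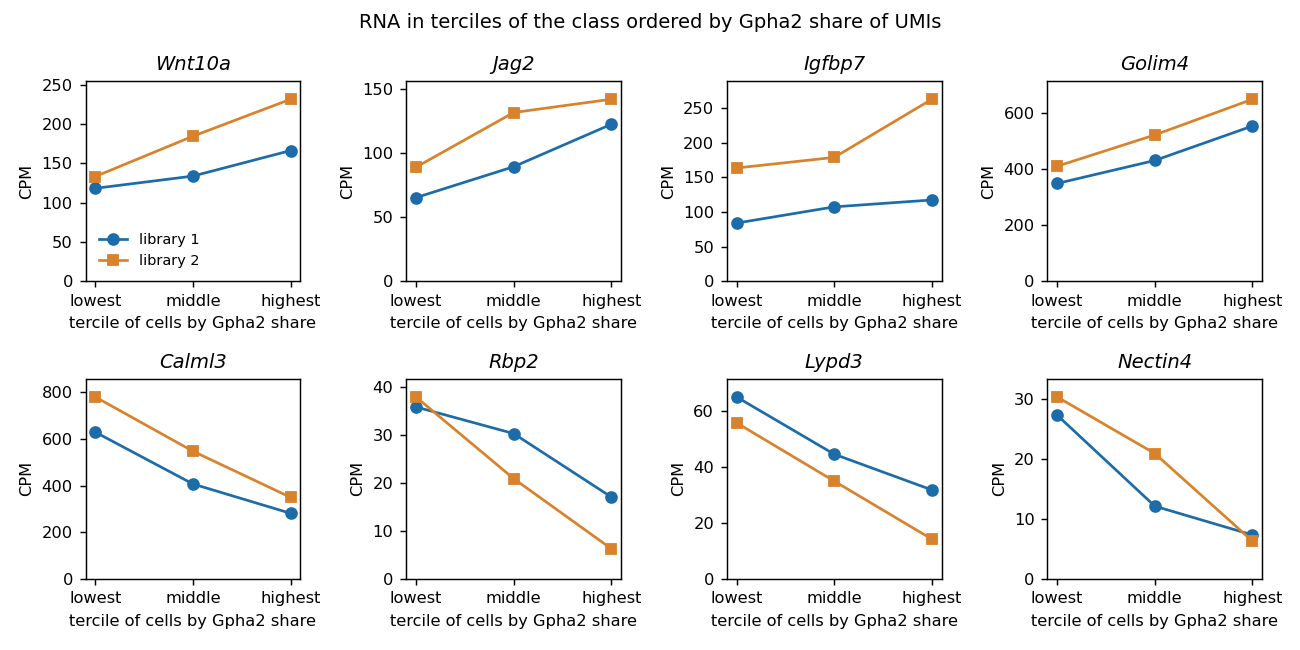
RNA level (CPM) of 8 genes in terciles of the class ordered by the share of Gpha2 in a cell's UMIs, 1 line per library, axes from 0. Wnt10a, Jag2, Igfbp7 and Golim4 increase and Calml3, Rbp2, Lypd3 and Nectin4 decrease from the lowest to the highest tercile in both libraries. Only genes with the same stepwise order in both libraries are shown.

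Against Krt15-dominant cells with mucosal keratins, 437 of 9859 genes were higher (4.43%) and 618 lower (6.27%), or 10.7% in all, and without the block 318 were called. Besides Col14a1 (2.01), the genes named as higher were the catenin-like gene Ctnnal1 (log2 fold change 2.05, SE 0.25), the Notch-modulating membrane protein gene Dlk2 (1.91), Fndc1 (1.85) and the laminin-binding integrin gene Itga3 (1.76). Ctnnal1 was at 69.2 and 46.7 CPM in members and 12.4 and 13.9 in cells with mucosal keratins. Fndc1 missed the threshold with cells matched on depth (0.89, edgeR adjusted p 0.158). Among the lower genes named by size, Krt6b was at 8.1 and 10.7 CPM against 493 and 546 (-5.78, SE 0.18), though with matched depth its edgeR adjusted p was 0.144 at a log2 fold change of -5.58. Muc4 was at 0 and 4.7 CPM against 69.6 and 137 (-5.37, SE 0.32), and the protease inhibitor gene Spink5 at 2.7 and 3.3 against 132 and 87.9 (-5.14, SE 0.39). Akr1b7 (-4.56) and Serpinb3a (-4.11) completed the set.

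Gene lists were read against these shares too. Lipid handling genes were lower in 11 of 21 cases and higher in 2, conjunctival genes lower in 6 of 10 and higher in 0, and corneal differentiation genes lower in 10 of 25 and higher in 1. Basal adhesion genes were lower in 1 of 19 and higher in 7, among them Itga3 and Col17a1. The basal transcription factor gene Trp63 was at 164 and 198 CPM against 106 and 112 (log2 fold change 0.71).

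Against Krt12-dominant cells, 1357 of 9859 genes were higher (13.8%) and 1331 lower (13.5%), or 27.3% in all, and without the block 1358 were called. Alox12e was at 92.1 and 313 CPM in members and 0.6 and 4.2 in Krt12-dominant cells (log2 fold change 6.37, SE 0.36, edgeR adjusted p 7.89e-06). It was higher still in the mucosal class, at 247 and 684 CPM (log2 fold change of the class against it -1.28, edgeR adjusted p 0.0189). Flt1, a receptor of vascular endothelial growth factor, was at 69.9 and 100.5 CPM against 1.0 and 1.7 (5.89, SE 0.20), beside Tfcp2l1 (6.08), Pdlim4 (5.84) and Gnai1 (5.74). Ppp1r3c, a glycogen-targeting phosphatase subunit gene, was at 2.7 and 0.5 CPM against 46.6 and 65.9 (-5.39, SE 0.40), beside Aqp5 (-6.44), Slurp1 (-6.24), Lypd2 (-6.10) and Clic3 (-4.72). Antigen presentation genes were higher in 12 of 15 cases, lower in 0. Among the higher genes were Cd74, H2-Aa, H2-Ab1 and H2-Eb1, which belong to class II presentation. Cd74 had 1 UMI in members of library 1 and 131 in library 2.

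The 2 libraries differed within the class. Of 3149 genes with at least 50 CPM in the higher library, 52 were over 2-fold higher in library 2 and 41 in library 1, and 60 of these 93 differed over 2-fold the same way in all other cells. Cd74, the invariant chain of class II antigen presentation, had 1 UMI in members of library 1 and 131 in library 2. The clock output gene Dbp was at 22.9 and 164 CPM, Isg15, an interferon-induced modifier, at 24.2 and 128, Ifi27l2a at 177 and 889, and Aoc1 at 6.0 and 60.7. In the other direction the alarmin subunit genes S100a8 (175 and 6.1 CPM) and S100a9 (218 and 24.8), C2cd4b (101 and 14.5), the stress factor gene Atf3 (307 and 51.4) and Gadd45g (59.2 and 9.8) were higher in library 1. With 1 sum per library these differences have no replicate check, and they lie beside the antigen presentation, interferon, immediate early and clock counts given above.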

How the data were processed

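Single-cell RNA libraries (10x Chromium 3' v3) of sorted GFP-positive corneal epithelial cells were analysed, 2 samples in 1 group. The authors deposited whole-number UMI counts per gene and barcode in 1 aggregated matrix of 31053 genes, written by 10x software 3.1.0 per the file headers. The submitters' processing notes name Cell Ranger 3.1.0, Seurat 5.0.0 and GRCm38 (mm10). Whether depth was equalised on aggregation is not given in the sources used here. Barcode suffixes were taken as libraries, with 19001107 and 18030874 UMIs. Of all barcodes, 475 had under 500 genes and 311 had 20% or more mitochondrial UMIs. No GFP feature was among the genes, so the reporter RNA was not measured.

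For each class, UMIs were added up within each library, and the sums were tested with edgeR 4.0.16 in R 4.3.3 (quasi-likelihood, robust, TMM, filterByExpr), Benjamini-Hochberg adjusted over all genes tested. The library is a block, since the sums of 1 library come from the same sample; this pairing comes from the barcode suffix. SE is the log2 fold change divided by the root of F. The script was checked on simulated counts. Alternatives were DESeq2 1.42.0, no block, no filter, cells matched on UMIs, cells thinned to 2000 UMIs (chosen after seeing the data for the comparisons between classes), other cell filters and other gate limits.

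Genes were named as the 10 (against all other cells) or 5 (against a class) largest called changes per direction whose sign agreed between libraries, with a minimum of 50 CPM in the higher group, and up to 4 per direction of each list. Genes named beyond this, such as Wnt6, Sox9, Ctgf and further genes called against cells with little Gpha2, were chosen after their values were seen. Members, markers and gene lists were chosen with earlier results of these data known. A few genes that the rule names or the tests called are not reported here. Exact intervals cover counting error only. Overlapping genes and near-identical copies, such as Krt6a and Krt6b, may share reads.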

Additional observations from a re-analysis of the deposited data

How the results depend on the processing

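Without the replicate block, edgeR called 900 genes against all other kept cells, 3 against cells with little Gpha2, 318 against cells with mucosal keratins and 1358 against Krt12-dominant cells, in place of 3029, 26, 1055 and 2688. In cells thinned to 2000 UMIs the counts were 1830, 17, 552 and 1592. DESeq2 called 1016 genes against all other cells, and the other DESeq2 counts stayed within 1.5 times. Without the filter on low counts, 76 genes were called against cells with little Gpha2, and the median log2 fold change of all genes moved to -0.15 against all other cells and -0.11 against Krt12-dominant cells. With cells matched on total UMIs, 372 genes were called against cells with mucosal keratins. The matched fit was not run against cells with little Gpha2, since 10 matched cells remained in library 2. The cause of these changes was not tested. The mean share of the class, 12.1%, ranged from 9.22% to 15.0% when 1 library was left out. Other limits on the cells or the gate moved it to between 10.1% and 14.0%, less than the spread between libraries. Counts of called genes with 1 library have no residual degrees of freedom and were not computed. Of 360 single-gene values under the alternatives, 334 kept their direction and call, 26 kept their direction and lost the call, and 0 reversed.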

Other observations

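Of 20 antioxidant genes tested against all other kept cells, 7 were higher in the class and 9 lower, and without the block 2 and 3. Over all genes tested, 12.5% were higher and 13.2% lower. The glutathione peroxidase gene Gpx2 was at 73.9 and 149 CPM in the class against 13.8 and 26.8 elsewhere (log2 fold change 2.42, SE 0.13), and Cat, catalase, was higher by 1.51 (SE 0.17). Gsto1, a glutathione transferase gene, was lower (-1.47, SE 0.07), and so was the quinone reductase gene Nqo1 (-1.62, SE 0.18). Among 13 heat shock genes, 4 were higher and 4 lower. Without the block these became 0 and 1, and DESeq2 called 0 higher. The small heat shock protein gene Hspb1 was at 485 and 410 CPM against 1453 and 1329 (-1.68, SE 0.07). Set against cells with little Gpha2, 0 of 18 antioxidant and 0 of 13 heat shock genes were called, where 0.264% of all genes were.

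Members with and without a Krt12 UMI were set side by side, as values with no test. In library 1, 87 members had none and 207 had 1 or more, and in library 2 the numbers were 166 and 284. Wfdc18 was at 2884 CPM in library 1 members without Krt12 and 1583 in those with it, but at 4082 and 4051 in library 2. Aqp5 was at 18.1 and 32.7 CPM in library 1 and 26.6 and 42.5 in library 2, lower without Krt12 in both. Median depth differed as well, at 4173 and 4992 UMIs in library 1 and 4463 and 4875.5 in library 2, and its part was not tested.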
